A study of Mus musculus with 6 samples.

Results

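Apoptosis genes and targets of the tumour suppressor p53 were read in follicular helper T (Tfh) cells, CD4 T cells specialised in helping germinal centre B cells. The group was a fixed list of 44 gene symbols, matched by name to the 47729 genes of the deposited table, and all 44 were found. Of these, 42 were tested, having reached a normalised read count of 10 in 3 or more of the 6 libraries. The remaining 2, Hrk and Bok, had almost no reads. Mice had received NP-OVA, a hapten-carrier antigen, intraperitoneally, and splenic cells carrying CD4 and TCR beta with high CXCR5 and high PD-1 were sorted. Of the 6 libraries, 3 were labelled Cbl-/-Cbl-b-/- (double knockout) and 3 were labelled as wild-type controls, all from immunised animals. CBL and CBL-B are E3 ubiquitin ligases that restrain T cell receptor and costimulatory signalling, and the series asks how they act below the costimulatory receptor ICOS in Tfh development. The sources used here do not give the strain, age or sex of the mice, whether animals were pooled, or in which cells the genes were deleted.

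Cell death in lymphocytes runs through 2 arms. In the mitochondrial arm, BH3-only proteins bind and block the anti-apoptotic members of the BCL2 family or activate the pore formers BAX and BAK, and released cytochrome c then assembles APAF1 and caspase-9 into the apoptosome. In the death receptor arm, FAS recruits FADD and caspase-8, which the decoy cFLIP (Cflar) holds in check. p53 feeds the first arm by inducing Bbc3, Pmaip1 and Bax, arrests the cell cycle through Cdkn1a, and is itself held low by MDM2 and MDM4. Bcl2l11, which encodes BIM, is the BH3-only protein best known for setting the lifespan of activated T cells.

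Among the 42 tested members, 2 rose in the double knockout, none fell, and 40 did not pass the test (limma, adjusted p below 0.05 over all genes tested). Of the members with a negative fold change, 4 had an unadjusted p below 0.05, edgeR called none and DESeq2 called 3. The 2 that rose were Cdkn1a, 2.71-fold, and Bbc3, 2.52-fold. Over all 13602 genes tested, 2.93% passed in either direction, 1.85% as higher and 1.07% as lower, beside 4.76% of the members. The median log2 fold change was -0.03 over the members and 0.00 over all genes. A positive fold change was seen for 17 members and a negative one for 25. At an unadjusted p below 0.05 there were 9 members, 21.4% of those tested, against 17.0% of all genes. In 5 members all double knockout libraries exceeded all controls, a share of 11.9% beside 12.3% of all genes. In 6 members every double knockout library lay below every control, 14.3% beside 11.3% of all genes. These shares lie near those of the transcriptome, so the results below concern single genes and not the list.

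The libraries held 23392254 to 38368885 reads assigned to genes. Cbl had normalised counts of 2221 to 3856 in the double knockout and 8614 to 12945 in the control (log2 fold change -1.88 ± 0.23 SE, limma adjusted p = 0.00888), while the whole-gene total of Cblb, whose deleted part is not given, stood at 7459 to 8054 against 6955 to 10037. All 15 Tfh markers were expressed, and none passed with limma. An unadjusted p below 0.05 was seen for 5, 1 higher and 4 lower, and for 17.0% of all genes. With edgeR 0 were called and with DESeq2 3, 20% beside 8.24% of all genes. The markers summed to 304560 to 363259 against 344506 to 360403. Trbc2 had the smallest p, at 22115 ± 1407 in the double knockout against 31496 ± 4323, without overlap (log2 fold change -0.50, limma adjusted p = 0.0824). Cd4 stood at 64794 to 66382 in the double knockout and 79244 to 82665 in the control, without overlap (log2 fold change -0.30, limma adjusted p = 0.238). Xist stood at 12769 to 18100 in the double knockout and 12.9 to 970.4 in the controls, and Y-linked Ddx3y at 0 to 7.16 against 2812 to 3721. Sex therefore followed genotype, and the effects of sex and genotype cannot be told apart in any result below. The libraries of the double knockout also differed among themselves. Mki67, a proliferation marker, stood at 16174, 7630 and 26640 in double knockout replicates 1 to 3 and at 8397 to 10016 in the controls. Foxp3, which marks regulatory T cells, reached 5451 in the second double knockout library and lay between 149.6 and 768 in the other 5. In bulk RNA, fewer cells of a type and less RNA per cell cannot be told apart.

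Cdkn1a and Bbc3, the members that rose, are both textbook p53 targets, and their upstream promoter windows are shown because each held a match to the p53 consensus. RefSeq promoter windows on GRCm38.p6, from 250 bases before to 50 bases after a start site, were matched by symbol for 39 of the 44 members (53 windows). The consensus spans 20 bases and consists of a 10-base element in tandem, searched without a spacer and with the central bases of each element intact; it is its own reverse complement, so 1 strand covers both. Capitals mark the match, and both windows are written 5′ to 3′ on the plus strand, chr17:29090729-29091028 for Cdkn1a and chr7:16309333-16309632 for Bbc3.
Cdkn1a: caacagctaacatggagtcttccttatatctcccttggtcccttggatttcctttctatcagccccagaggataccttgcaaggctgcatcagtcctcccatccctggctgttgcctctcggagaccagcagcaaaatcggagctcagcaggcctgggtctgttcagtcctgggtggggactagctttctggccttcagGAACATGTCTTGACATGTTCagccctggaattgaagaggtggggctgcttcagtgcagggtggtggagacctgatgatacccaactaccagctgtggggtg
Bbc3: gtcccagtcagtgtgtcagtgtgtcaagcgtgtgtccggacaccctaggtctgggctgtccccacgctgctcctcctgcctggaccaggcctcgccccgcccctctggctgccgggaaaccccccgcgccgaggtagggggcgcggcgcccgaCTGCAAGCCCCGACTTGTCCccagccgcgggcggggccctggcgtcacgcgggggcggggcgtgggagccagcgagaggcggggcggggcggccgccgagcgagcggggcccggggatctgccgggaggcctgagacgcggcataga

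The Cdkn1a match begins at position -51 relative to the start site of this upstream window and differs from the consensus at 1 base. A match with at most 1 mismatch was found in 0.0548% of the 32851 windows of all genes. The Bbc3 match begins at position -97 and differs at 3 bases, and 0.572% of all windows held a match with at most 3 mismatches. Among the members, such a match was found in 5 of 53 windows, and besides Cdkn1a and Bbc3 these belonged to Aen, with overlapping windows from 2 start sites, and to Trp53 itself. Aen and Trp53 had log2 fold changes of -0.02 and -0.08. The further windows of Cdkn1a and Bbc3, at start sites downstream of those shown, held no match. A match is a feature of the letters in the window and was not tested as a binding site.

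Cdkn1a (ENSMUSG00000023067, GRCm38 chromosome 17, 29090976 to 29100727) encodes p21, the cyclin-dependent kinase inhibitor that p53 uses to stop the cell cycle. Its normalised read counts were 376, 305 and 439 in double knockout replicates 1 to 3 and 109.7, 177 and 129 in control replicates 1 to 3. The lowest double knockout library lay above the highest control, and the groups did not overlap. The means were 373 ± 67.3 (SD, n = 3) and 138 ± 34.6, a log2 fold change of 1.44 ± 0.24 (SE; limma adjusted p = 0.0236), or 2.71-fold with a 95% interval of 1.86 to 3.96. The level was low, with 1606 reads over all 6 libraries. A gene on the opposite strand overlaps 273 exon bases of Cdkn1a. How reads there were counted is not known, since no source used here gives the strand setting.

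Bbc3 (ENSMUSG00000002083, chromosome 7, 16308393 to 16318205) encodes PUMA, a BH3-only protein that binds all the main anti-apoptotic BCL2 proteins. Its normalised read counts were 1492, 1021 and 1563 in the double knockout and 682, 565 and 384 in the control. Again the groups did not overlap, with all double knockout libraries higher. The means were 1359 ± 295 and 544 ± 150.2, a log2 fold change of 1.33 ± 0.24 (limma adjusted p = 0.0307), or 2.52-fold with a 95% interval of 1.71 to 3.71. Both calls held with edgeR (adjusted p = 0.0267 for Cdkn1a and 0.0319 for Bbc3) and with DESeq2 (adjusted p = 3.17e-06 and 1.15e-05). With the replicate number added to the limma fit, neither passed (adjusted p = 0.0558 for Cdkn1a and 0.0536 for Bbc3). edgeR called 2.98% of all genes (1.90% higher, 1.08% lower). When single libraries were omitted, fold changes stayed between 1.29 and 1.63 on the log2 scale for Cdkn1a and between 1.10 and 1.53 for Bbc3. In those fits, which have less power, Cdkn1a passed without double knockout replicate 2 (adjusted p = 0.0212) and without control replicate 2 (0.0385), and Bbc3 passed without double knockout replicate 2 only (0.0168). Without any of the other libraries, double knockout replicates 1 and 3 and control replicates 1 and 3, neither passed (adjusted p from 0.0532 to 0.118 for Cdkn1a and from 0.0584 to 0.149 for Bbc3). Bbc3 also did not pass without control replicate 2 (adjusted p = 0.0976). Those fits called fewer genes in most cases, 0.434%, 0.874% and 1.74% of all genes without control replicates 1, 2 and 3 and 0.518%, 3.73% and 2.32% without double knockout replicates 1, 2 and 3.

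**Figure D1:**
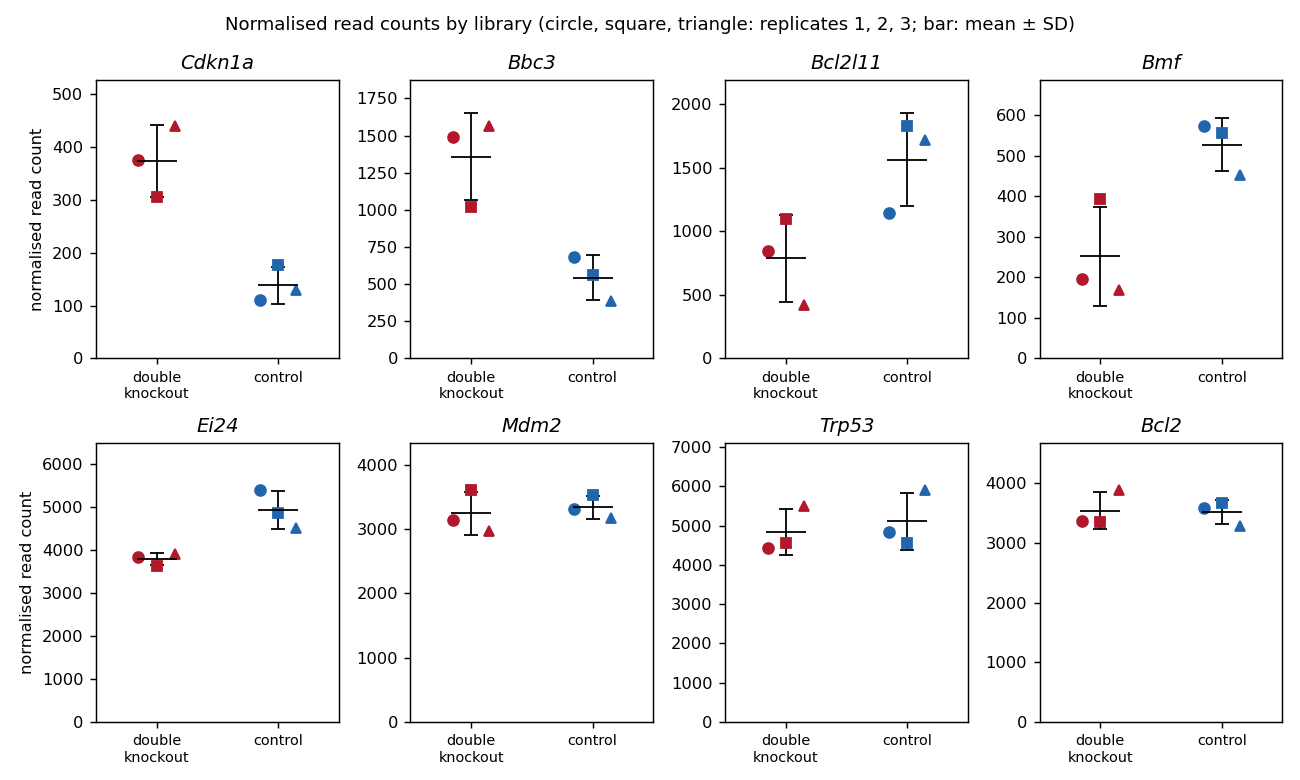
Normalised read counts of 8 genes in each library (y axis, linear, from 0), with the 3 double knockout libraries in red, the 3 controls in blue, and the mean ± SD as bars. Cdkn1a and Bbc3 were above every control in all double knockout libraries, Bcl2l11, Bmf and Ei24 below, and Mdm2, Trp53 and Bcl2 overlapped.

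Within the double knockout, the order of the libraries was the same for Cdkn1a and Bbc3, lowest in replicate 2 and highest in replicate 3. That is also the order of Mki67. Foxp3 was highest in replicate 2. Among 28 cell cycle genes none passed with limma, edgeR or DESeq2, and none had an unadjusted p below 0.05. Only 2 of the 28 had a 95% interval inside 1.5-fold of no change, beside 45.3% of all genes. For most of these genes a change of that size is therefore not left out. Their summed level ran from 56112 to 154103 in the double knockout and from 70317 to 93554 in the control. Among 11 regulatory T cell markers, 2 rose and none fell with limma, Il1r2 and Capg (18.2% beside 2.93% of all genes). DESeq2 called 5 of the 9 it tested, 55.6% beside 8.24% of all genes. Of the 11, 9 had a positive fold change, with a median of 0.84 on the log2 scale. An unadjusted p below 0.05 was seen for 6, 5 of them higher, and for 17.0% of all genes. The list summed to 23584 to 34320 against 21322 to 28902, and its part in the values of Cdkn1a and Bbc3 was not tested. Double knockout replicate 2 was the highest library in Foxp3 and the lowest in Mki67. Without that library, the fold changes of Cdkn1a and Bbc3 were 1.58 and 1.53 on the log2 scale. This omission does not separate Foxp3 from Mki67. Il1r2 and Capg stood above every control in every double knockout library.

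The gene for p53 itself, Trp53, had normalised read counts of 4423, 4563 and 5513 in the double knockout and 4837, 4561 and 5922 in the control (log2 fold change -0.08, 95% interval -0.38 to 0.23). The libraries of both groups lay intermingled. Mdm2, which encodes the ligase that degrades p53 and is itself a p53 target, stood at 3146, 3617 and 2969 against 3316, 3529 and 3179. Its interval, -0.29 to 0.20, leaves out a rise of 1.5-fold. Mdm4, the MDM2 partner that masks p53 activity, stood at 5172 ± 1225 against 4377 ± 1014 (0.24, interval -0.27 to 0.75). The control of p53 activity lies largely in protein stability, which these data do not measure.

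Of the 17 members fixed as textbook p53 targets, Cdkn1a and Bbc3 rose, none fell and 15 did not pass, with a median log2 fold change of -0.03. The 2 that rose were 11.8% of the 17, beside 1.85% of all genes called higher and 2.93% called in either direction. Members were chosen with earlier results of these data known, so this share carries no weight of its own. Of the 15 that did not pass, 13 had a 95% interval whose upper bound lay under 1.5-fold. Over all genes, this held for 8423 of the 13204 that did not pass. The intervals of Pmaip1 and Perp reached beyond 1.5-fold. Pmaip1, which encodes the BH3-only protein NOXA, stood at 569.8, 707 and 523 against 609, 402 and 593 (log2 fold change 0.18, interval -0.28 to 0.64), with overlapping groups. Perp, a membrane protein linked to p53-dependent death, had 29.7 ± 11.6 against 26.3 ± 8.91 and 173 reads in all.

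Growth arrest and repair genes other than Cdkn1a did not pass. The most abundant per kb of exon were Ccng1, a cyclin that recruits phosphatase 2A to MDM2, with 2693 ± 424 against 3147 ± 194 normalised counts per kb, and Trp53inp1, a stress protein that promotes p53 phosphorylation, with 2209 ± 234 against 2809.6 ± 557. Per kb, Cdkn1a was far lower, at 105.1 ± 18.9 against 38.9 ± 9.74. Log2 fold changes were -0.24 for Ccng1 and -0.33 for Trp53inp1. Btg2, an antiproliferative factor, stood at 5708 ± 369.8 against 5638 ± 401 normalised counts (0.02, interval -0.21 to 0.25). Zmat3, an RNA-binding p53 target, stood at 1935 ± 153 against 1937 ± 56.1 (0.00, interval -0.23 to 0.23). The stress-induced Sesn2, which restrains mTORC1, had 542 ± 29.9 against 568 ± 154.

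The GADD45 genes, which encode stress sensors, stood on both sides of 0 without passing. Gadd45a, the p53 target among them, had 549.99 ± 95.3 against 676 ± 80.96 (log2 fold change -0.31, interval -0.70 to 0.09). Gadd45b, an NF-kappaB target, stood at 1523, 1656 and 1596 against 1801, 1811 and 2839. All its double knockout libraries lay below all controls, and control replicate 3 stood apart as the highest. Its log2 fold change of -0.40 had an interval of -0.81 to 0.01. Gadd45g stood at 282, 388 and 215 against 167, 149.4 and 289 (0.56, interval -0.15 to 1.28), with overlapping groups.

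Among the targets linked to death, Ei24, an endoplasmic reticulum protein induced by p53, stood at 3839, 3628 and 3896 in the double knockout and 5402, 4867 and 4507 in the control. No double knockout library reached the lowest control. Its log2 fold change was -0.38 ± 0.10, which missed the threshold with limma (adjusted p = 0.0941) and edgeR (adjusted p = 0.0918) and passed as lower with DESeq2 (adjusted p = 0.0267, range over the alternatives 0.0267 to 0.318). Its exons overlap an antisense gene by 324 bases. Aen, a nuclease that degrades DNA in dying cells, had 777 ± 136 against 779 ± 66.7. Phlda3, an AKT inhibitor, had 103.9 ± 19.96 against 109 ± 7.18.

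**Figure D2:**
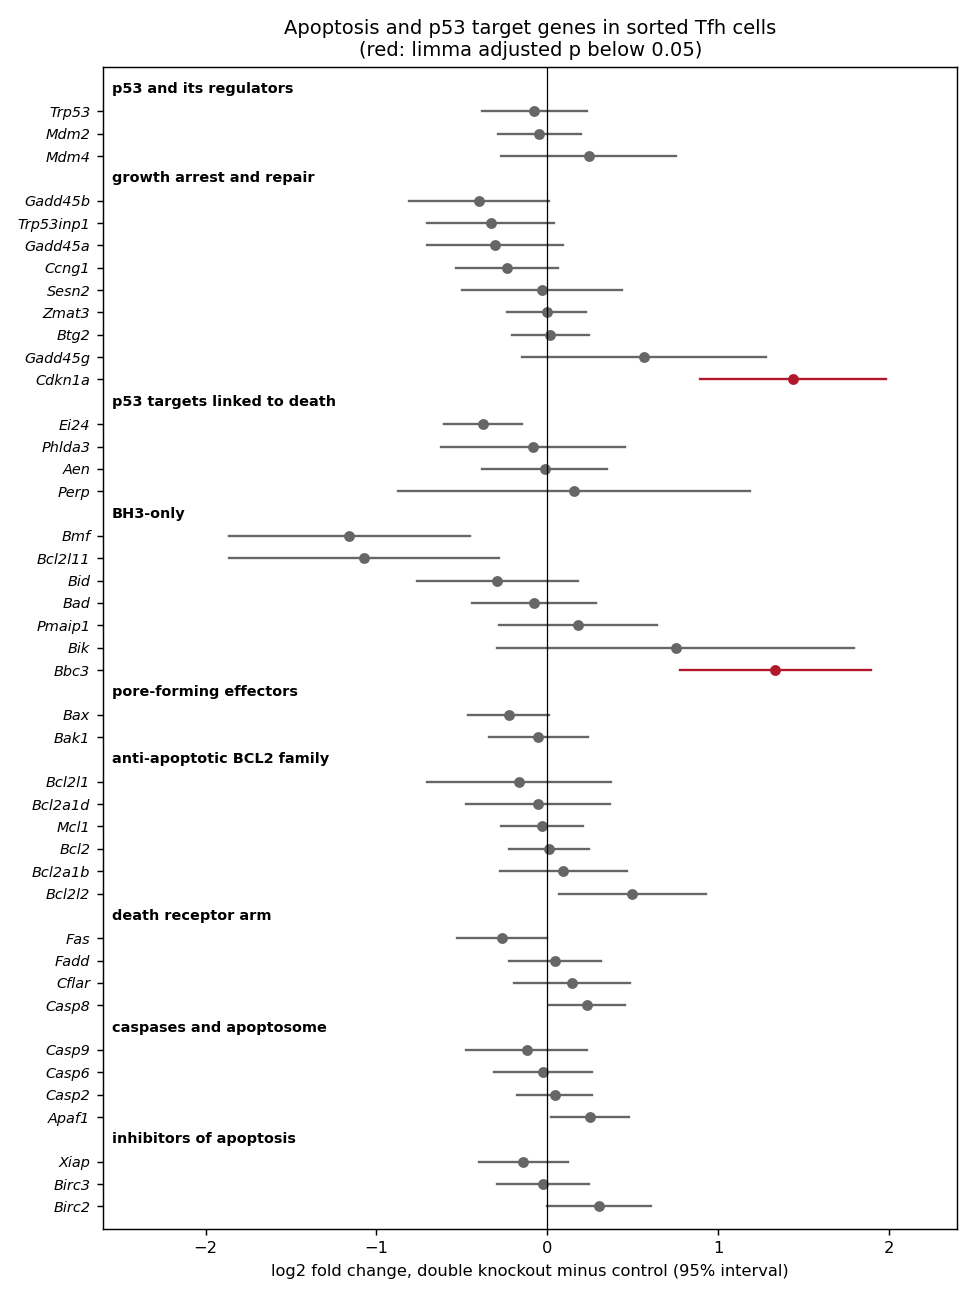
Log2 fold changes (double knockout minus control, x axis, points) with 95% limma intervals (lines) for the 42 members tested, grouped by role, with members at an adjusted p below 0.05 in red. Cdkn1a at 1.44 and Bbc3 at 1.33 are the only red points, and Bmf at -1.16 and Bcl2l11 at -1.07 lie farthest on the other side.

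The BH3-only genes spread most widely of the roles, from -1.16 to 1.33 on the log2 scale. Bbc3 rose, and the other 6 tested did not pass. Bcl2l11 (chromosome 2, 128126038 to 128162547) stood at 847, 1095 and 417 in the double knockout and 1143, 1826 and 1718 in the control. The groups did not overlap, although double knockout replicate 2 came close to control replicate 1. Its log2 fold change was -1.07 ± 0.34 (interval -1.86 to -0.28), which did not pass with limma (adjusted p = 0.155) or edgeR (adjusted p = 0.174). It passed as lower with DESeq2 (adjusted p = 0.0290, range over the alternatives 0.0214 to 0.355) and, in the authors' deposited table, with a log2 fold change of -0.79 ± 0.24 (adjusted p = 0.0214).

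Bmf (chromosome 2, 118528757 to 118549687), which encodes a BH3-only protein held on the cytoskeleton, stood at 196, 392 and 168 against 573, 556 and 454. All double knockout libraries lay below the lowest control, and replicate 2 was the highest of its group. The log2 fold change was -1.16 ± 0.31 (interval -1.86 to -0.45), again short of the threshold with limma (adjusted p = 0.0935) and edgeR (adjusted p = 0.130). It passed as lower with DESeq2 (adjusted p = 0.0149, range over the alternatives 0.00852 to 0.308), and the authors' deposited table gives -0.85 ± 0.24 (adjusted p = 0.0102). Without double knockout replicate 2, Bmf passed with limma as well, at a log2 fold change of -1.53 (adjusted p = 0.00852), while Bcl2l11 stood at -1.36 (adjusted p = 0.0619). Without double knockout replicate 3, the lowest library for both genes, the log2 fold changes were smaller, -0.67 for Bcl2l11 (adjusted p = 0.190) and -0.92 for Bmf (adjusted p = 0.175). Both genes were highest in double knockout replicate 2 and lowest in replicate 3, the reverse of the order of Cdkn1a, Bbc3 and Mki67. The part of Mki67 and Foxp3 in these orders was not tested. DESeq2 called 5 members, where it called 8.24% of all genes (4.97% higher, 3.27% lower). The authors' deposited table calls 4 members, with a background of 6.61% of genes (4.10% higher, 2.52% lower).

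Forkhead factors of the FOXO family, which AKT keeps out of the nucleus, are known activators of Bcl2l11 and Bbc3, so the forkhead motif GTAAACA was searched on both strands (reverse complement TGTTTAC) of the same windows. It was found in 3.65% of all 32851 windows and in 3 of 53 member windows, which belonged to Bbc3, Bcl2l11 and Mdm2. The windows of Bbc3 (chr7:16310011-16310310, plus strand, a start site downstream of the one above) and Bcl2l11 (chr2:128125788-128126087, plus strand) are shown because both of these known targets held the motif, in capitals. The further windows of both genes held no forkhead match. As with the p53 match, the motif was not tested as a binding site, and the part of FOXO factors in the values was not tested.
Bbc3: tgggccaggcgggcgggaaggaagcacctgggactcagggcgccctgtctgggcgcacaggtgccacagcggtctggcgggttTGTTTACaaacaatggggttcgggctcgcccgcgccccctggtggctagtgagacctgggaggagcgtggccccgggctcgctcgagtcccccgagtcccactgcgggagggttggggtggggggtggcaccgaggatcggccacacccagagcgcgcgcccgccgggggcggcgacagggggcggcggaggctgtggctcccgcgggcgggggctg
Bcl2l11: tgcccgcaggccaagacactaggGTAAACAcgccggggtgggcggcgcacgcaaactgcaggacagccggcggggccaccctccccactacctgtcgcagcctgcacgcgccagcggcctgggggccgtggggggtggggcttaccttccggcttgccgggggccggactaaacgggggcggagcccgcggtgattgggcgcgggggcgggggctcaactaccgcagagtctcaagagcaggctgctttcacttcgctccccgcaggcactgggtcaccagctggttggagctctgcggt

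The remaining BH3-only genes overlapped between groups. Bad, whose product is silenced by AKT phosphorylation, had 519 ± 84.9 against 543 ± 30.4 (log2 fold change -0.08). Bid, which links caspase-8 to mitochondria, had 594 ± 152 against 712 ± 65.6 (-0.29, interval -0.76 to 0.18). Bik was near the floor with 203 reads in all, at 40.98 ± 15.5 against 24.3 ± 11.6 (0.75, interval -0.30 to 1.80). Hrk had no read in any library, and Bok, a BAX-like protein of the pore-forming group, had 1 read, in control replicate 2.

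Set against each other per kb of exon, the BH3-only transcripts had a different make-up in the 2 groups. Bbc3 took 48.8%, 36.4% and 51.0% of the BH3-only pool in the double knockout and 26.3%, 23.3% and 15.5% in the control. The share was higher in every double knockout library than in any control. Bcl2l11 took 7.32%, 10.3% and 3.60% against 11.7%, 19.9% and 18.4%, and Bmf 2.59%, 5.65% and 2.22% against 8.94%, 9.29% and 7.42%. In both cases the double knockout libraries lay below the controls. The same held for the shares of Bad (16.1%, 12.6% and 14.5% against 17.6%, 17.5% and 19.1%) and Bid (8.22%, 14.2% and 13.6% against 16.3%, 16.1% and 18.9%). The counts of Bad and Bid overlapped between groups. Shares of a pool are tied, so a larger Bbc3 share by itself lowers the others. In the control, the levels per kb of Bbc3 (256 ± 70.7), Bad (212 ± 11.9), Bid (201 ± 18.5), Pmaip1 (196 ± 42.3) and Bcl2l11 (195 ± 45.7) lay within their spread of each other. In the double knockout, Bbc3 (639.7 ± 139) stood above Pmaip1 (219.6 ± 35.1), the next in order. The ratio of Bbc3 to Bcl2l11 normalised counts was 1.76, 0.933 and 3.75 in the double knockout and 0.596, 0.309 and 0.223 in the control. The whole pool came to 1401 ± 69.1 normalised counts per kb against 1175 ± 41.1. These shares combine the gene values given above and carry no test of their own.

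**Figure D3:**
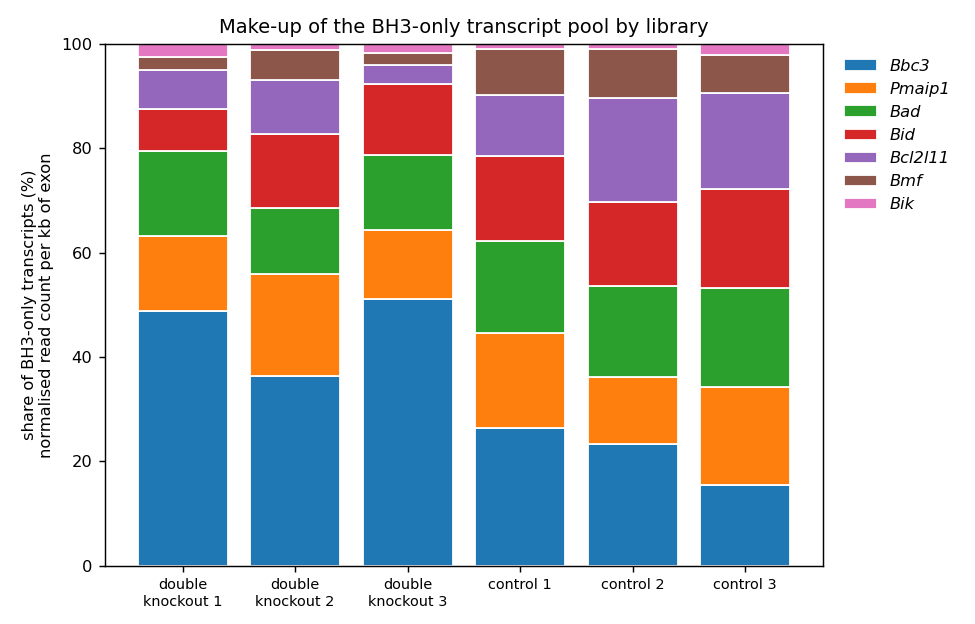
Stacked bars of the share (%) of each BH3-only gene in the summed BH3-only level per kb of exon, 1 bar per library. The Bbc3 part (bottom) spans 36.4% to 51.0% in the double knockout and 15.5% to 26.3% in the control.

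The pore formers and the anti-apoptotic BCL2 family did not pass. Bax, a p53 target, stood at 2534, 2364 and 2270.2 against 2755, 2579 and 3062, every double knockout library below every control, with a log2 fold change of -0.23 (interval -0.46 to 0.01). Bak1 had 4934 ± 444 against 5137 ± 738 (-0.05). Bcl2, which protects resting and memory T cells, stood at 3364, 3358 and 3899 against 3591, 3666 and 3292 (0.01, interval -0.23 to 0.24). Mcl1, a short-lived protector on which T cell survival depends, had 10889 ± 1157 against 11069 ± 239.7 (-0.03, interval -0.27 to 0.21). Bcl2l1, which encodes BCL-XL, had 926 ± 69.4 against 1082 ± 399.9, with control replicate 3 the highest library at 1535. Bcl2l2, which encodes BCL-W, stood at 282, 218 and 282 against 169, 199 and 182, without overlap, and did not pass (log2 fold change 0.50, interval 0.07 to 0.93, limma adjusted p = 0.223). Exons of Bax and Bcl2l2 overlap those of another gene on the same strand, by 192 and 594 bases.

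Bcl2a1b and Bcl2a1d encode copies of A1, an NF-kappaB target. They had 1506 ± 107.1 against 1430.5 ± 320.4 and 969 ± 135 against 1016 ± 236. Of the 50-base words in their longest coding transcripts, 57.6% for Bcl2a1b and 79.5% for Bcl2a1d also occurred in another Bcl2a1 copy. The split between copies is uncertain, because the handling of reads that match several places is not stated in the labels. Exons of Bcl2a1b also overlap those of another gene on the same strand, by 401 bases. Per kb of exon, the order in the control was Mcl1 (3238 ± 70.1), Bcl2a1b (1751 ± 392), Bcl2a1d (1177 ± 273), Bcl2 (384 ± 21.7), Bcl2l1 (236 ± 87.2) and Bcl2l2 (41.1 ± 3.32). The order was the same in the double knockout. Mcl1 took 42.7% to 52.0% of this pool in every library. The summed anti-apoptotic level was 6799 ± 103.6 against 6827 ± 766 normalised counts per kb.

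In the death receptor arm, Fas stood at 1529, 1545 and 1437 in the double knockout and 1993, 1586 and 1874 in the control. Every double knockout library lay below every control, by a narrow margin for control replicate 2. The log2 fold change of -0.27 (interval -0.53 to 0.00) did not pass (limma adjusted p = 0.288). Casp8 stood at 5136, 5543 and 5936 against 4438, 4767 and 4932, without overlap in the other direction (0.23, interval 0.01 to 0.45, limma adjusted p = 0.274). Fadd, the adaptor, had 836 ± 61.8 against 809.6 ± 46.5, and Cflar 3389 ± 703 against 3028 ± 190.5. All 4 genes of this arm had intervals inside 1.5-fold in either direction, beside 45.3% of all genes.

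The caspases and the apoptosome were likewise within 1.5-fold in all 4 genes. Apaf1, the scaffold of the apoptosome and a p53 target, stood at 3967, 3727 and 3549.7 against 3152, 3398 and 2908, without overlap (log2 fold change 0.25, interval 0.02 to 0.48, limma adjusted p = 0.249). Casp9 had 666 ± 104.5 against 720.1 ± 65.4, Casp2 2297 ± 169.8 against 2224 ± 43.9, and Casp6 771 ± 65.97 against 784 ± 55.4. Of the inhibitors of apoptosis, Birc2, which encodes cIAP1, had 2220.2 ± 320.1 against 1793 ± 142 (0.30, interval 0.00 to 0.60). Birc3, which encodes cIAP2, had 2489 ± 323 against 2523 ± 153. Xiap, the direct caspase inhibitor, lies on chromosome X and had 4906 ± 348 against 5418 ± 604 (-0.14). Over all members, 24 of 42 had an interval inside 1.5-fold of no change, 57.1% beside 45.3% of all genes.

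Other p53 targets and other apoptosis genes were called by limma at shares near that of all genes. Of 35 other p53 targets, 29 were tested, none rose and 1 fell (3.45% beside 2.93% of all genes), with a median log2 fold change of -0.04 (4 had an unadjusted p below 0.05). The one that fell was Rap2b, a RAS-related GTPase, at 2898 ± 220.4 against 4307 ± 157 in control cells (-0.57 ± 0.10 on the log2 scale, limma adjusted p = 0.0236). Its log2 fold change lay between -0.62 and -0.51 when single libraries were omitted, and the call was lost without double knockout replicate 1 and without each of control replicates 1, 2 and 3 (adjusted p from 0.0561 to 0.117). DESeq2 called 3 genes of this list, 10.7% of those it tested beside 8.24% of all genes. Of 43 other apoptosis genes, 39 were tested, 1 rose and none fell (2.56%), with a median of 0.01 (11 had an unadjusted p below 0.05). Casp1, the inflammatory caspase that activates interleukin-1 beta, rose from 2360.3 ± 72.7 to 3449.7 ± 319.6 (0.54 ± 0.10, limma adjusted p = 0.0334). Casp1 lay between 0.50 and 0.62 when single libraries were omitted, and its call held only without double knockout replicate 2 (adjusted p = 0.0229), being lost without double knockout replicates 1 and 3 and without each control (adjusted p from 0.0619 to 0.157). DESeq2 called 7 of that list, 17.9% beside its 8.24% of all genes. Of 26 DNA damage response and repair genes, 24 were tested and none passed with limma, edgeR or DESeq2 (2 at an unadjusted p below 0.05, median 0.12). Of the 24, 16 had a positive fold change and 8 a negative one. This list summed to 58348 to 65833 in the double knockout and 51933 to 57421 in the control, without overlap, and the sum was not tested. The smallest p values there belonged to the damage mediators Mdc1 (3354 ± 141 against 2709.6 ± 405) and Trp53bp1 (4274 ± 238 against 3649.5 ± 229.5). Both stood above every control in every double knockout library, as 12.3% of all genes did, and none of the 24 lay below.

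**Figure D4:**
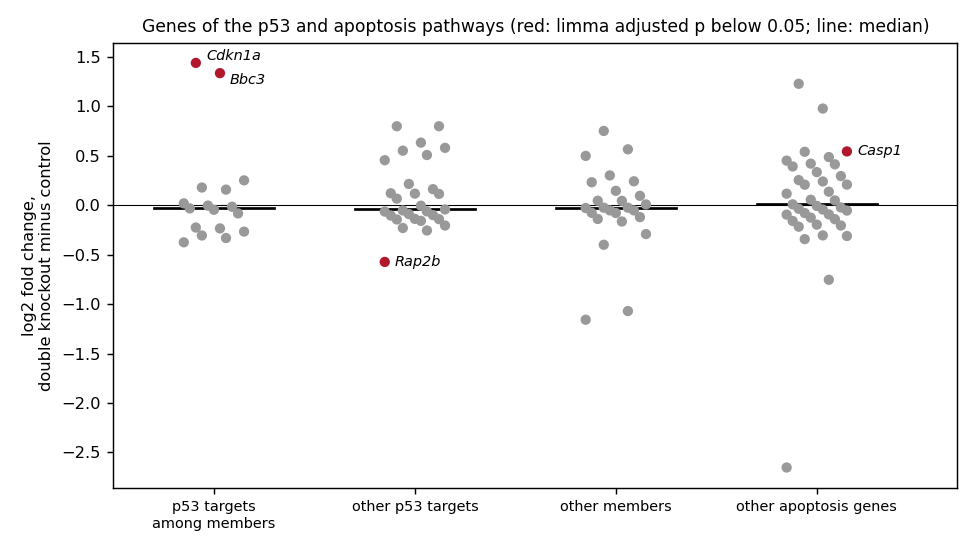
Log2 fold changes (y axis, double knockout minus control) of the tested p53 targets among the members (17), other p53 targets (29), the remaining members (25) and other apoptosis genes (39), 1 point per gene, with the median as a line and genes at an adjusted p below 0.05 in red. Cdkn1a and Bbc3 stand above the other p53 targets, and the medians lie between -0.04 and 0.01.

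Markers of other cell types moved with genotype in part. Of the 8 natural killer and gamma-delta T cell markers tested, 3 rose and 2 fell with limma, 62.5% beside 2.93% of all genes. DESeq2 called 7 of the 8, 87.5% beside 8.24% of all genes. An unadjusted p below 0.05 was seen for 7, and for 17.0% of all genes. Of the whole list of 13, 11 were found. These 11 summed to 6705 to 14406 normalised counts in the double knockout and 3279.6 to 4115 in the control, with Klra1 at 0. Trdc, the delta chain constant segment, rose from 905 ± 92.2 to 7946 ± 3593 (log2 fold change 3.05 ± 0.27, limma adjusted p = 0.00303). Within that sum, Trdc alone stood at 6352, 12060 and 5425 in double knockout replicates 1 to 3. The killer cell receptor gene Klrb1a fell from 174 ± 109.96 to 16.3 ± 0.165 (-3.14 ± 0.46, limma adjusted p = 0.0162), while the granzyme genes Gzma and Gzmb rose. Of 6 erythroid markers, 2 fell with limma (33.3%), and the list summed to 11.6 to 102.5 against 280.1 to 612. B cell markers summed to 22669.8 to 30833 against 23001 to 26606. None of the 13 tested passed with limma or edgeR (6 at an unadjusted p below 0.05, 4 or 30.8% with DESeq2). Their defining member Cd79a stood at 12.3, 22.9 and 7.16 in the double knockout against 53.3, 27.4 and 45.9, without overlap (log2 fold change -1.60, limma adjusted p = 0.145). The smallest p values of the list lay in opposite directions, at Ms4a1 (4.56 ± 2.41 against 38.3 ± 26.1) and Fcmr (109.1 ± 48.9 against 35.3 ± 7.43). Of 4 tested CD8 T cell markers, 1 fell with limma (25%), and the list summed to 222 to 1042 against 687 to 928. No plasma cell or myeloid marker passed with limma or edgeR (1 of each list at an unadjusted p below 0.05 and 1 with DESeq2). Summed levels were 11735 to 18171 against 12034 to 16572 for plasma cells and 369.5 to 676 against 333 to 405 for myeloid cells. The smallest p among plasma cell markers belonged to Jchain, at 428 ± 191 against 1305 ± 339 (log2 fold change -1.69, limma adjusted p = 0.0542). Among myeloid markers it belonged to Cd68, at 347 ± 188 against 104 ± 14.6 (1.58, limma adjusted p = 0.0745). Neither gene overlapped between groups. Cd209a and Itgam of the myeloid list were at 0. The part of these cells in the values of Cdkn1a, Bbc3, Bcl2l11 and Bmf was not tested.

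**Figure D5:**
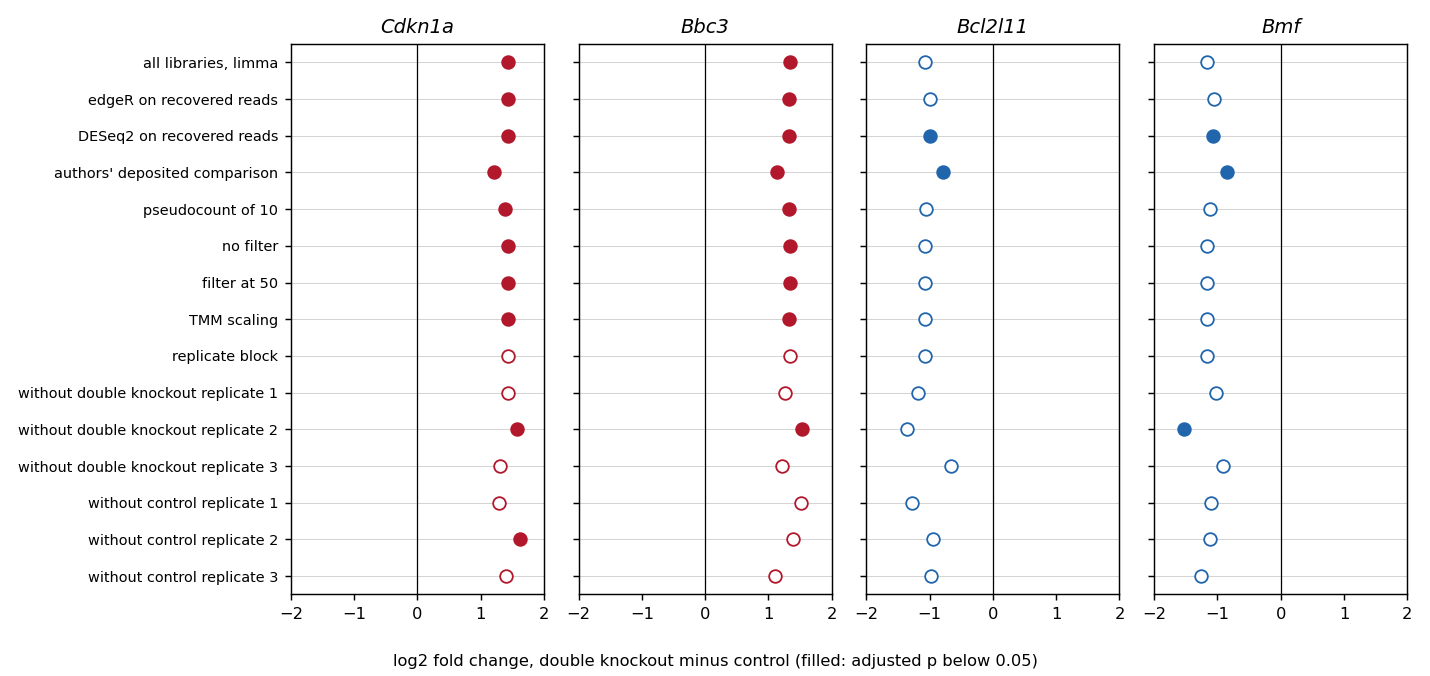
Log2 fold changes (x axis, double knockout minus control) of Cdkn1a, Bbc3, Bcl2l11 and Bmf under each of 15 processing settings (lines), filled where the adjusted p was below 0.05. Cdkn1a and Bbc3 were positive and Bcl2l11 and Bmf negative under every setting, and calls ended for Cdkn1a and Bbc3 under the replicate block and most fits that left out a library.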

How the data were processed

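RNA-seq of 6 libraries was analysed from 1 deposited table. Per the file headers, the authors deposited a normalised signal: gene read counts after size-factor scaling. Build GRCm38 and the tools DESeq2 1.12.3, featureCounts 1.4.6 and STAR 2.5.1b are listed, without roles, per the submitters' processing notes. The authors' deposited comparison holds log2 fold changes, a test statistic (score) and p-values, used only as an alternative. Whole reads were recovered, since 100% of values were whole multiples of each column's smallest value (tolerance 0.001 of a read). On those reads edgeR 4.0.16 called 405 genes and DESeq2 1.42.0 called 1098.

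The main test was limma-trend 3.58.1 (R 4.3.3) on log2(value + 1), which understates changes of low genes, fitted to genotype alone. Tests were two-sided, and p-values were adjusted by Benjamini-Hochberg over 13602 genes with at least 10 in at least 3 libraries, at a threshold of 0.05. In data simulated from these libraries 63% of genes altered by 1 log2 unit and 97% of those altered by 2 were recovered. There were 12 false calls in that fit of 13330 genes, for which 200 had been altered. The altered genes were drawn only from genes above a minimum mean level, so recovery of low genes was not measured. The labels do not say that samples came from separate mice, so p-values reflect spread among samples that may be technical. Replicates of a group differed by more than sampling noise (chi-square over degrees of freedom 10.6 to 95.5). Named were all members and, of the other lists, up to 4 genes that passed or up to 2 by smallest p. Other names were chosen after their values were seen. Members and lists were chosen with earlier results of these data known. Coordinates and exon lengths are from GENCODE M21 (GRCm38), with length the union of all annotated exons, promoter windows from RefSeq (GRCm38.p6). Plots used matplotlib 3.10.9.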

Additional observations from a re-analysis of the deposited data

How the results depend on the processing

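The count of genes that differed was 398, and became 1098 with DESeq2, 993 in the authors' deposited table, 265 with the replicate block and 58 to 498 when single libraries were omitted. The count of members was 2, and became 5 with DESeq2 (Cdkn1a, Bbc3, Bcl2l11, Bmf and Ei24), 4 in the authors' deposited table (without Ei24), 0 with the replicate block and 0 to 3 with libraries left out. The cause was not tested, although fits without a library or with a block have fewer degrees of freedom. The member count stayed at 2 with edgeR, a pseudocount of 10, no filter, a filter at 50 and TMM scaling. Under the replicate block the adjusted p was 0.0558 for Cdkn1a, 0.0536 for Bbc3 and 0.0527 for Casp1. Same-numbered libraries correlated in their deviations from the group means by 0.0739, 0.0538 and 0.0924, and each library correlated best with its own number. Differently numbered libraries correlated by -0.0955 to 0.0325. The labels do not say that the numbers mark pairs, so whether they do is not known. No member changed sign under another test, filter, pseudocount, scaling or block. With libraries left out, 22 members that did not pass changed sign, over these log2 fold changes: Aen -0.116 to 0.135, Bad -0.184 to 0.0541, Bak1 -0.119 to 0.0628, Bcl2 -0.0637 to 0.044, Bcl2a1b -0.0282 to 0.269, Bcl2a1d -0.169 to 0.129, Bcl2l1 -0.372 to 0.118, Birc3 -0.13 to 0.0311, Btg2 -0.0419 to 0.0653, Casp2 -0.0162 to 0.0758, Casp6 -0.0885 to 0.0343, Casp9 -0.21 to 0.0131, Cflar -0.0193 to 0.234, Fadd -0.0146 to 0.0921, Mcl1 -0.114 to 0.0247, Mdm2 -0.127 to 0.0151, Perp -0.135 to 0.471, Phlda3 -0.226 to 0.0442, Pmaip1 -0.015 to 0.285, Sesn2 -0.245 to 0.157, Trp53 -0.176 to 0.0341 and Zmat3 -0.057 to 0.0569. Depth limited Perp and Bik, with 173 and 203 reads in all, and Hrk and Bok, which were not tested.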
